A study of Mus musculus with 12 samples.

Results

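The cytochrome P450 genes of the Cyp1, Cyp2, Cyp3 and Cyp4 families, leaving out Cyp2b10 and the Cyp2c subfamily, were described by subfamily across 4 groups of 3 mouse livers. A gene was taken when its Ensembl identifier carries such a symbol in the GENCODE vM1 annotation of mm9 and its counts sum to more than 0. Of 66 symbols of this form, 39 have a row in the count table, 10 of these rows are at 0 in every library, and the remaining 29 genes are the members, out of 28151 rows with counts. The 27 symbols without a row, among them Cyp2a5, Cyp2d9, Cyp3a11 and Cyp4a10, were not analysed here. The 29 genes are all protein coding and fall into 17 subfamilies, of which Cyp4f has 6 members, Cyp3a 4, Cyp2a 3, Cyp1a and Cyp2j 2 each and the others 1 each. A filter on low counts kept 26 of the 29 for testing and left out Cyp3a57, Cyp4f40 and Cyp4x1.

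The study asked how hepatocyte Rela and Stat3, a pair of transcription factors of the inflammatory response, shape the liver during colitis. Whole liver RNA was sequenced from untreated wild-type mice, wild-type mice given dextran sodium sulfate (DSS), untreated mice labelled Rela and Stat3 knockout, and such knockout mice given DSS. DSS, which damages the colon lining, was given at 2% in the drinking water for 6 days, and untreated mice drank water. All mice were on a C57BL/6 background and 5 to 7 weeks old when DSS was given. The knockout (RelaΔhepStat3Δhep) was made with an albumin-Cre transgene, which acts in hepatocytes, so other liver cells keep both genes. The wild-type mice are Cre-negative littermates that carry the floxed alleles. The study used both sexes, the labels do not state the sex of each mouse, and nothing in them says whether libraries share a litter, so p-values measure the spread between these libraries.

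P450 enzymes are haem proteins of the endoplasmic reticulum that insert an oxygen atom into lipophilic compounds, with electrons passed on by P450 reductase. Families Cyp1 to Cyp3 act mainly on drugs, pollutants and steroids, and family Cyp4 on fatty acids and eicosanoids. In the liver they are made chiefly by hepatocytes, many are controlled by ligand-activated receptors, and inflammation is known to lower the expression of many of them.

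The 12 libraries held 65879529 to 82850098 estimated counts, and levels are given as normalised counts (CPM, on TMM-scaled library sizes). Xist, the transcript of the inactive X chromosome, was at 903 to 1283 CPM in all 3 knockout DSS libraries and at 1143 in wild-type untreated library 3, against at most 29 in the other 8. The summed Y-linked genes were at most 0.12 CPM in the knockout DSS libraries, 30.1 in wild-type untreated library 3 and 175 to 241 elsewhere. A difference of the knockout DSS group from any other group therefore cannot be told apart from a sex-linked difference. Wild-type DSS library 2 stood apart with the lowest TMM factor, 0.758. Of 7 hepatocyte markers 6 have a row, and their sum ran from 81657 to 167402 CPM over all libraries. The sum of 6 neutrophil markers was 1.69 to 3.45 CPM in wild-type untreated, 2.26 to 102 in wild-type DSS, 0.345 to 0.715 in knockout untreated and 6.07 to 21.9 in knockout DSS libraries. Other marker sums also separated in knockout livers, Kupffer cell at 514 to 837 CPM with DSS against 249 to 273 untreated, stellate cell at 500 to 676 against 425 to 484 and lymphocyte at 4.31 to 9.44 against 2.51 to 3.04. In wild type the cholangiocyte sum was 12.2 to 21 with DSS against 6.02 to 9.01 untreated, and the lymphocyte sum 1.85 to 3.01 against 3.15 to 6.64. The part of these cell types in the results was not tested. The kidney markers Kap and Slc22a6 were at 0 throughout. Rela was at 39.5 to 62.3 CPM in all libraries, and Stat3 at 43 to 74.8 in the knockout libraries against 45.7 to 330 in wild type. These whole-gene counts do not show a deleted exon and cover cells outside the deletion, so they do not check the labels.

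Cyp2e1, which oxidises ethanol and paracetamol, gave the highest level of the 29 genes. Averaged over the 4 groups and divided by exon length, it reached 2201 CPM per kb, followed by Cyp2f2 with 465, Cyp2a12 with 373, Cyp2a4 with 288, Cyp1a2 with 286 and Cyp3a25 with 272. The other 23 genes lay at 83.8 CPM per kb (Cyp3a13) or below, and 12 of the subfamilies are represented by a single gene. The order below Cyp2e1 differed by group. In wild-type untreated, wild-type DSS, knockout untreated and knockout DSS livers, Cyp2a4 was at 280, 20.2, 247 and 603 CPM per kb. Cyp1a2 was at 446, 180, 367 and 152. The summed level of the 29 genes was 9255 ± 1109 CPM (SD, n = 3) in wild-type untreated, 6341 ± 3179 in wild-type DSS, 10787 ± 1129 in knockout untreated and 5271 ± 740 in knockout DSS livers. The knockout DSS sums of 4616 to 6074 lay below all 3 knockout untreated sums of 10038 to 12085, while the wild-type DSS sums of 3640 to 9844 overlapped the wild-type untreated range of 8050 to 10235. In whole liver RNA, fewer cells of a type and less RNA per cell cannot be told apart. Cyp2e1 made up 48.6% to 55.2% of the summed level in wild-type untreated, 33.9% to 65.3% in wild-type DSS, 52.8% to 64.7% in knockout untreated and 20% to 34.2% in knockout DSS livers. Without Cyp2e1 the sums were 4450 ± 499, 3001 ± 938, 4347 ± 353 and 3774 ± 450 CPM in the same order. The knockout DSS sums of 3369 to 4258 then overlapped the knockout untreated range of 4042 to 4733. In wild type the DSS sums of 1928 to 3663 lay below all untreated sums of 3899 to 4870.

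**Figure D1:**
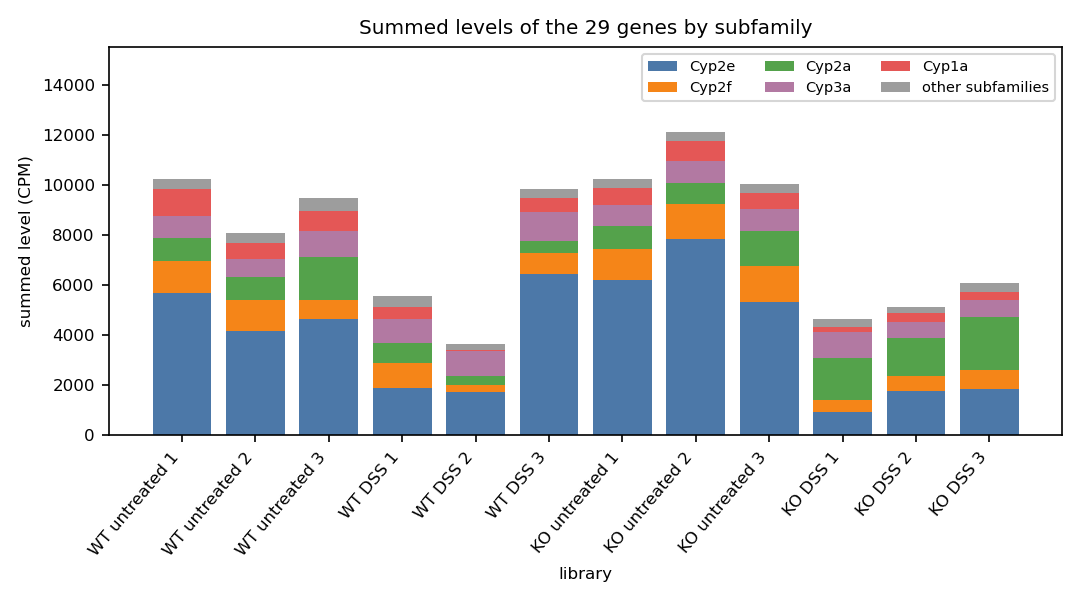
Summed CPM of the 29 genes in each of the 12 libraries (horizontal axis), stacked by subfamily. The Cyp2e segment, which is Cyp2e1 alone, is 923 to 1815 CPM in the knockout DSS libraries and 5305 to 7821 in the knockout untreated libraries.

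Each comparison was tested in edgeR over 17652 genes with Benjamini-Hochberg adjustment and a threshold of 0.05. With DSS in wild type, 1 of the 26 tested genes fell, Cyp1a1, and none rose, where 0.685% of all tested genes changed and 0.232% fell. The medians of the log2 fold change were -0.31 over the 26 genes and 0.02 over all genes. With DSS in knockout, 5 of 26 changed, Cyp2e1, Cyp2u1 and Cyp4f15 lower and Cyp2g1 and Cyp4f16 higher, where 7.02% of all genes changed, 4.57% higher and 2.46% lower. Here the medians were -0.03 and -0.01. Between untreated knockout and wild type, edgeR called 0 of 26 genes, where 0.0623% of all genes differed (0.034% higher and 0.0283% lower in knockout), and 5 of 26 had an unadjusted p under 0.05, against 11.7% of all genes. DESeq2 called 1 of the 26 genes in this comparison, Cyp2a22, and 334 genes over all. These were 2.3% of the genes to which it gave an adjusted p, which is the base of every DESeq2 share given here. Between the DSS-treated genotypes 1 gene was higher in knockout, Cyp2g1, where 0.334% of all genes differed, 0.187% higher and 0.147% lower. Cyp2g1 was also the only gene of the 26 whose DSS response differed between genotypes (interaction), where 0.408% of all genes did, 0.244% with a higher and 0.164% with a lower response in knockout.

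Counts of genes whose groups did not overlap were larger. With DSS in wild type 7 of 26 genes had all 3 DSS libraries below all untreated ones and none had all above, where 18.7% of all genes separated, 9.49% upward and 9.21% downward. These were Cyp1a1, Cyp1a2, Cyp2a4, Cyp2a22, Cyp2g1, Cyp2j8 and Cyp2r1. With DSS in knockout 6 genes separated upward and 6 downward, where 31.8% of all genes separated, 17.8% upward and 14% downward. Untreated knockout and wild type separated for 4 genes, Cyp4f15 higher in knockout and Cyp1a1, Cyp2g1 and Cyp4f16 lower, where 20.2% of all genes did, 9.56% higher and 10.7% lower. Under DSS 4 genes were higher in knockout (Cyp2a4, Cyp2a22, Cyp2g1 and Cyp4f16) and 1 lower (Cyp2u1), where 16.8% of all genes separated, 8.8% higher and 7.98% lower.

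**Figure D2:**
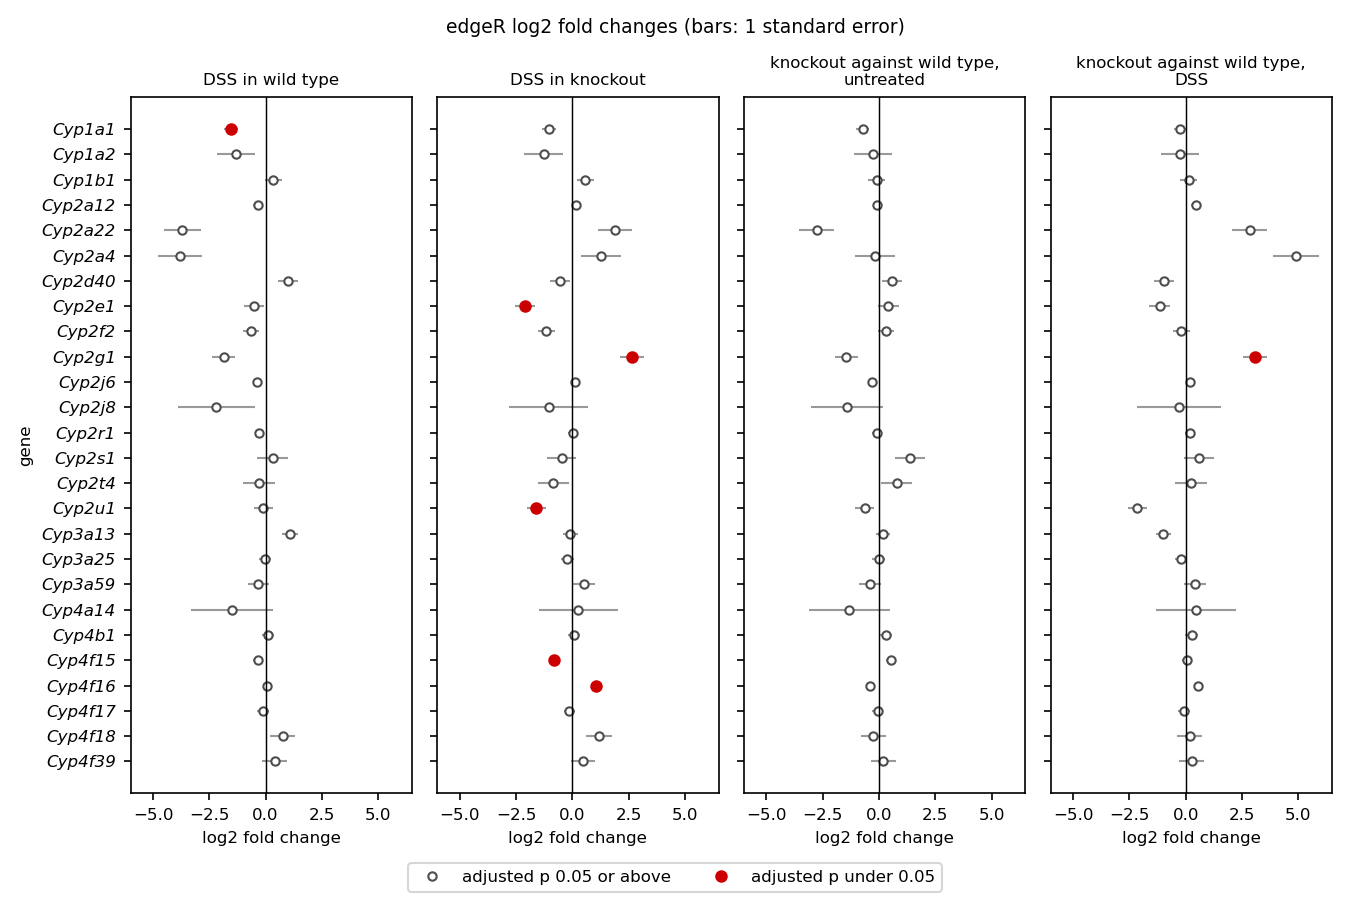
edgeR log2 fold changes (horizontal axis, bars 1 standard error) of the 26 tested genes in 4 comparisons, red where the adjusted p was under 0.05. Cyp1a1 is red at -1.53 in the wild-type DSS panel, 5 genes are red in the knockout DSS panel, none in the untreated genotype panel, and Cyp2g1 at 3.07 in the DSS genotype panel.

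The Cyp1a genes are the classical targets of the aryl hydrocarbon receptor. Cyp1a1 metabolises polycyclic aromatic hydrocarbons and is low in uninduced liver, and Cyp1a2, which metabolises caffeine and aromatic amines, is constitutive there. They lie next to each other on mm9 chromosome 9 and are transcribed in opposite directions, Cyp1a1 from 57545420 to 57551629 on the plus strand and Cyp1a2 from 57524744 to 57531462 on the minus strand. The bases before each start are shown because both genes had lower values under DSS. They are from RefSeq, placed on mm9 by exact match at chr9:57545170-57545419 (plus strand) and chr9:57531463-57531712 (minus strand), and capitals mark the core letters of the aryl hydrocarbon receptor motif, GCGTG on either strand.
Cyp1a1: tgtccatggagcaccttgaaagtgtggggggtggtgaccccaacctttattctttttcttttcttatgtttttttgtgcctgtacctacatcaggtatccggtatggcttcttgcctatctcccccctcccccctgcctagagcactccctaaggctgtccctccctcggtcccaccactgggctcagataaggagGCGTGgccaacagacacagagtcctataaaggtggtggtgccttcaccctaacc
Cyp1a2: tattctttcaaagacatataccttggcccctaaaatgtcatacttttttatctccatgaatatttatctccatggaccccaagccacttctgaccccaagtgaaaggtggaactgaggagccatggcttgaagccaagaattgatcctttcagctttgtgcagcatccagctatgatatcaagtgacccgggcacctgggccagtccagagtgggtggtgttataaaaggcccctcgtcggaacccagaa
The motif begins 54 bases before the Cyp1a1 start and was not found in the Cyp1a2 window.

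Cyp1a1 was at 4.14, 2.6 and 3.26 CPM in the wild-type untreated libraries and at 1.41, 0.876 and 1.17 in the wild-type DSS libraries. All 3 DSS values lay below all untreated values, on 55 to 101 counts per library under DSS and 190 to 315 without. Cyp1a1 fell by 1.53 ± 0.30 (SE) on the log2 scale, 2.89-fold (edgeR adjusted p = 0.0361). In knockout livers it was at 2.13, 2.52 and 1.43 CPM untreated and 0.885, 1.2 and 0.862 with DSS, again without overlap. That difference was -1.04 ± 0.30 (edgeR adjusted p = 0.0526), just outside the threshold. It was called by DESeq2 (adjusted p = 0.00993) and in edgeR with DESeq2 size factors, with a mean of at least 10 counts, without wild-type DSS library 2 and without knockout untreated library 3 (adjusted p from 0.0343 to 0.0496). The untreated knockout values also lay below the untreated wild-type values, by -0.72 ± 0.29 (edgeR adjusted p = 0.363). The DSS responses of the genotypes differed by 0.49 (95% interval -0.327 to 1.3, edgeR adjusted p = 0.583). The Cyp1a1 call in wild type was lost without any of the 3 wild-type untreated libraries, without wild-type DSS library 2 or 3 or without knockout untreated library 1, at log2 values from -1.68 to -1.34 and edgeR adjusted p from 0.0613 to 0.116. Without wild-type untreated library 3, the only high-Xist library of that comparison, the value was -1.55 (edgeR adjusted p = 0.103). With only the 2 wild-type groups in the fit it was -1.53 (edgeR adjusted p = 0.133).

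Cyp1a2 was at 1098, 645 and 790 CPM in wild-type untreated and at 447, 14.6 and 559 in wild-type DSS livers. The second DSS library was far below the other DSS libraries, and all 3 were below the untreated ones. The log2 fold change was -1.31 ± 0.86 (edgeR adjusted p = 0.535). In knockout livers Cyp1a2 was at 678, 784 and 618 CPM untreated and 221, 344 and 299 with DSS, without overlap, and the log2 fold change was -1.27 ± 0.86 (edgeR adjusted p = 0.411). This standard error comes from all 4 groups, and without wild-type DSS library 2 the knockout value was -1.28 (edgeR adjusted p = 0.00471). With only the knockout groups in the fit it was -1.29 (edgeR adjusted p = 0.00496). Cyp1b1, an enzyme found mostly outside the liver, stayed between 0.661 and 1.83 CPM and its groups overlapped in every comparison.

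The Cyp2a, Cyp2f, Cyp2g, Cyp2s and Cyp2t members share a cluster on mm9 chromosome 7, between 26587494, the lowest coordinate of Cyp2s1, and 27943687, the highest of Cyp2t4. Cyp2a4, a testosterone hydroxylase known to be more abundant in female than in male mouse liver, and Cyp2a22 varied by a larger ratio between libraries than Cyp2a12, a hydroxylase of steroids and bile acids. The promoters of Cyp2a4 (chr7:27091961-27092208, plus strand) and Cyp2a22 (chr7:27724406-27724655, minus strand) are shown because both genes separated with DSS in each genotype, toward lower values in wild type and higher values in knockout. Capitals mark the PAR bZIP motif TTATGNAA, searched on both strands.
Cyp2a4: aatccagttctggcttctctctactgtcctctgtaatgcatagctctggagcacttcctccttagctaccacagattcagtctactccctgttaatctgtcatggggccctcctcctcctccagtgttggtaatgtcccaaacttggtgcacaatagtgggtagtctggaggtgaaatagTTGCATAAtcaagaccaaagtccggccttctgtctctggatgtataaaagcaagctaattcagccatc
Cyp2a22: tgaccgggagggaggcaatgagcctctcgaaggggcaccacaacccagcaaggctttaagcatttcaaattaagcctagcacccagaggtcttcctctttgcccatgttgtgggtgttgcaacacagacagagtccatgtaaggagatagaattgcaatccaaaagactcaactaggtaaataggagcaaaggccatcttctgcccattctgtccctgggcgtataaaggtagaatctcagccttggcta
The motif begins 70 bases before the RefSeq start of Cyp2a4, which lies 2 bases past the annotated start where the printed run ends, and was not found in the Cyp2a22 window.

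Cyp2a4 was at 161, 343 and 940 CPM in wild-type untreated and 74.7, 6.45 and 22.8 in wild-type DSS livers. The DSS values lay below all untreated values, with a log2 fold change of -3.80 ± 0.98 (edgeR adjusted p = 0.117, DESeq2 adjusted p = 0.00241). Leaving out wild-type DSS library 1 gave -5.04 (edgeR adjusted p = 0.0708). In knockout livers it was at 260, 221 and 791 CPM untreated and 940, 818 and 1349 with DSS. These DSS values lay above all untreated knockout values, with a log2 fold change of 1.29 ± 0.89 (edgeR adjusted p = 0.419). The knockout DSS level was also above all 3 wild-type DSS values, by 4.90 ± 1.03 on the log2 scale, and missed the threshold (edgeR adjusted p = 0.0945), while DESeq2 gave an adjusted p of 3.19e-05. Without wild-type DSS library 1 it was 6.15 and passed (edgeR adjusted p = 0.031). The DSS responses of Cyp2a4 differed by 5.09 ± 1.31 (edgeR adjusted p = 0.126, DESeq2 adjusted p = 0.00664), and by 2.25 with the high-Xist covariate (edgeR adjusted p = 0.835). The 4 high-Xist libraries held the 4 highest Cyp2a4 values, 818 to 1349 CPM against 6.45 to 791 in the other 8. With high Xist as a covariate in edgeR the knockout DSS response of Cyp2a4 was -0.61 and the genotype difference under DSS 3.00 (adjusted p = 0.92 and 0.811). Without the 4 high-Xist libraries, which leaves 2 wild-type untreated libraries and no knockout DSS group, the wild-type DSS response was -2.86 (edgeR adjusted p = 0.369). Its transcript is 98.2% identical to that of Cyp2a5, which was not analysed here, so its counts may include reads of that gene.

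Cyp2a22 was at 42.4, 11 and 131 CPM in wild-type untreated, 7.83, 2.42 and 3.93 in wild-type DSS, 7.39, 6.3 and 13.3 in knockout untreated and 34.6, 32.7 and 34.1 in knockout DSS livers. The highest value belonged to the high-Xist wild-type library, and the 3 knockout DSS values spanned only 32.7 to 34.6. The wild-type DSS values were below all untreated ones, with a log2 fold change of -3.70 ± 0.82 (edgeR adjusted p = 0.0815), which was -2.50 without wild-type untreated library 3 (edgeR adjusted p = 0.162) and -4.20 without library 2 (edgeR adjusted p = 0.036). The knockout DSS values were above all untreated ones, by 1.91 ± 0.76 (edgeR adjusted p = 0.159). This value was 1.88 with only the knockout groups in the fit (edgeR adjusted p = 0.00427) and changed sign to -0.39 with the high-Xist covariate (edgeR adjusted p = 0.922). The untreated difference, knockout minus wild type, was -2.77 ± 0.78 (edgeR adjusted p = 0.248), and -1.57 without wild-type untreated library 3. With DSS the knockout was above wild type by 2.84 ± 0.79 (edgeR adjusted p = 0.175), and by 0.54 with the covariate (edgeR adjusted p = 0.959). With only the DSS groups in the fit it was 2.83 (edgeR adjusted p = 0.0499). The difference of the DSS responses was 5.61 ± 1.11 (edgeR adjusted p = 0.0742), 2.11 with the high-Xist covariate, and 6.11 without wild-type untreated library 2 (edgeR adjusted p = 0.0207). Leaving out wild-type untreated library 3 gave 4.41 for this difference (edgeR adjusted p = 0.104). DESeq2 called Cyp2a22 in the wild-type DSS, untreated genotype, DSS genotype and interaction comparisons (adjusted p = 8.94e-05, 0.0161, 0.00798 and 3.21e-05). Cyp2a22 and Cyp2a12 transcripts are 96.2% identical. Cyp2a12 was at 368 to 741 CPM in all libraries, and among the 4 comparisons of groups its largest log2 difference was 0.44, between the DSS-treated genotypes, and 0.71 without wild-type DSS library 1 (edgeR adjusted p = 0.0722). The wild-type DSS response of Cyp2a12 was -0.61 without that library (edgeR adjusted p = 0.147).

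Cyp2e1 lies on mm9 chromosome 7 from 147949638 to 147960874. It was at 5654, 4151 and 4608 CPM in wild-type untreated livers and at 1876, 1712 and 6431 with DSS. DSS libraries 1 and 2 were below all untreated libraries and library 3 was above them, so the groups overlapped and the log2 fold change was -0.52 ± 0.45 (edgeR adjusted p = 0.647). Without wild-type DSS library 3 it was -1.42 (edgeR adjusted p = 0.0671). In knockout livers Cyp2e1 was at 6194, 7821 and 5305 CPM untreated and at 923, 1755 and 1815 with DSS. Here all DSS values lay below all untreated values, and Cyp2e1 fell by 2.10 ± 0.46 on the log2 scale, 4.3-fold (edgeR adjusted p = 0.0193). The difference between the DSS responses was -1.58 ± 0.63 (edgeR adjusted p = 0.249), so a difference between genotypes did not pass the threshold. Without wild-type DSS library 3 it was -0.68 (edgeR adjusted p = 0.47). The call in knockout was lost without knockout untreated library 2 or knockout DSS library 1 or 2, at -2.23 to -1.86 (edgeR adjusted p from 0.0501 to 0.0875). With the high-Xist covariate the value was -2.02 with an edgeR adjusted p of 0.404.

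Cyp2f2, known for activating naphthalene in lung and liver, was at 1281, 1219 and 788 CPM in wild-type untreated, 1005, 274 and 818 in wild-type DSS, 1241, 1409 and 1422 in knockout untreated and 466, 603 and 762 in knockout DSS livers. The wild-type groups overlapped and the knockout groups did not. The knockout log2 fold change was -1.15 ± 0.38 (edgeR adjusted p = 0.0837), and -0.49 with the high-Xist covariate. It was called by DESeq2 (-1.18, adjusted p = 0.0116), and in edgeR at -1.17 with only the knockout groups and without wild-type DSS library 2 (adjusted p = 0.00841 and 0.00779).

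Cyp2g1, an enzyme best known from the olfactory mucosa, was low, and it was the only gene of the 26 called in 3 comparisons. It was at 4.62, 2.43 and 4.81 CPM in wild-type untreated livers and at 1.89, 0.35 and 0.991 with DSS. In knockout livers it was at 1.32, 1.77 and 1.23 CPM untreated and at 12.4, 10.2 and 4.66 with DSS. Wild-type DSS values lay below all wild-type untreated values, while knockout DSS values lay above all knockout untreated and all wild-type DSS values. Counts ran from 22 to 135 per library in wild-type DSS and from 330 to 866 in knockout DSS livers.

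In knockout livers Cyp2g1 rose by 2.66 ± 0.52 on the log2 scale with DSS, 6.31-fold (edgeR adjusted p = 0.0138). In wild type its log2 fold change was -1.87 ± 0.52 (edgeR adjusted p = 0.12, DESeq2 adjusted p = 0.00612), and -2.55 without wild-type DSS library 1 (edgeR adjusted p = 0.0422). The DSS responses differed by 4.53 ± 0.73 (edgeR interaction, adjusted p = 0.027), and the knockout level under DSS was above wild type by 3.07 ± 0.53 (edgeR adjusted p = 0.0424). Untreated, the knockout values lay below the wild-type values, by -1.46 ± 0.51 (edgeR adjusted p = 0.314). The 4 high-Xist libraries were the 4 highest for Cyp2g1 as well, 4.66 to 12.4 CPM against 0.35 to 4.62. With high Xist as a covariate the 3 called values of Cyp2g1 were 2.21, 3.91 and 2.62 in edgeR for the knockout DSS response, the interaction and the genotype difference under DSS, with adjusted p of 0.438, 0.584 and 0.755.

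The Cyp2g1 call in knockout was lost without knockout untreated library 2 or 3 or knockout DSS library 1, at 2.36 to 2.84 (edgeR adjusted p from 0.0565 to 0.0606). The interaction was lost without wild-type untreated library 1 or 3, wild-type DSS library 3, any of the knockout untreated libraries or knockout DSS library 1, at 4.23 to 4.71 (edgeR adjusted p from 0.0592 to 0.0918). The genotype difference under DSS was lost without any 1 of 8 libraries, which were all but wild-type untreated library 3, wild-type DSS libraries 1 and 2 and knockout DSS library 3, at 2.78 to 3.07 (edgeR adjusted p from 0.0505 to 0.153). It was also lost with no filter on low counts and with only the 2 DSS groups in the fit, at 3.08 and 3.06 (edgeR adjusted p = 0.0578 and 0.19).

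Cyp2u1, a fatty acid hydroxylase on mm9 chromosome 3 from 130993409 to 131006145, was at 99.3, 128 and 37 CPM in wild-type untreated and 103, 40.6 and 103 in wild-type DSS livers. In knockout livers it was at 53.1, 62.5 and 53.8 CPM untreated and at 17.6, 17.8 and 20.6 with DSS. The wild-type groups overlapped, while the knockout DSS values were the 3 lowest of all 12. Cyp2u1 fell by 1.60 ± 0.43 on the log2 scale in knockout, 3.02-fold, just inside the threshold (edgeR adjusted p = 0.0499). In wild type the log2 fold change was -0.10 ± 0.42 (edgeR adjusted p = 0.948), and the responses differed by -1.50 ± 0.59 (edgeR adjusted p = 0.254). Under DSS the difference of knockout from wild type was -2.14 ± 0.44 (edgeR adjusted p = 0.0744, DESeq2 adjusted p = 6.8e-06), and it passed without wild-type untreated library 3 or wild-type DSS library 2 (-2.14 and -2.47, edgeR adjusted p = 0.0132 and 0.0397). The 4 high-Xist libraries held the 4 lowest values, 17.6 to 37 CPM against 40.6 to 128. With the high-Xist covariate the knockout DSS response of Cyp2u1 was 0.02 and the genotype difference under DSS -0.52 (edgeR adjusted p = 0.997 and 0.906). The call stayed without wild-type untreated library 2 or 3 or wild-type DSS library 2 and was lost without any of the other 9 libraries, at -1.67 to -1.51 (edgeR adjusted p from 0.0578 to 0.167), and it was lost with no filter on low counts (-1.60, edgeR adjusted p = 0.103).

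**Figure D3:**
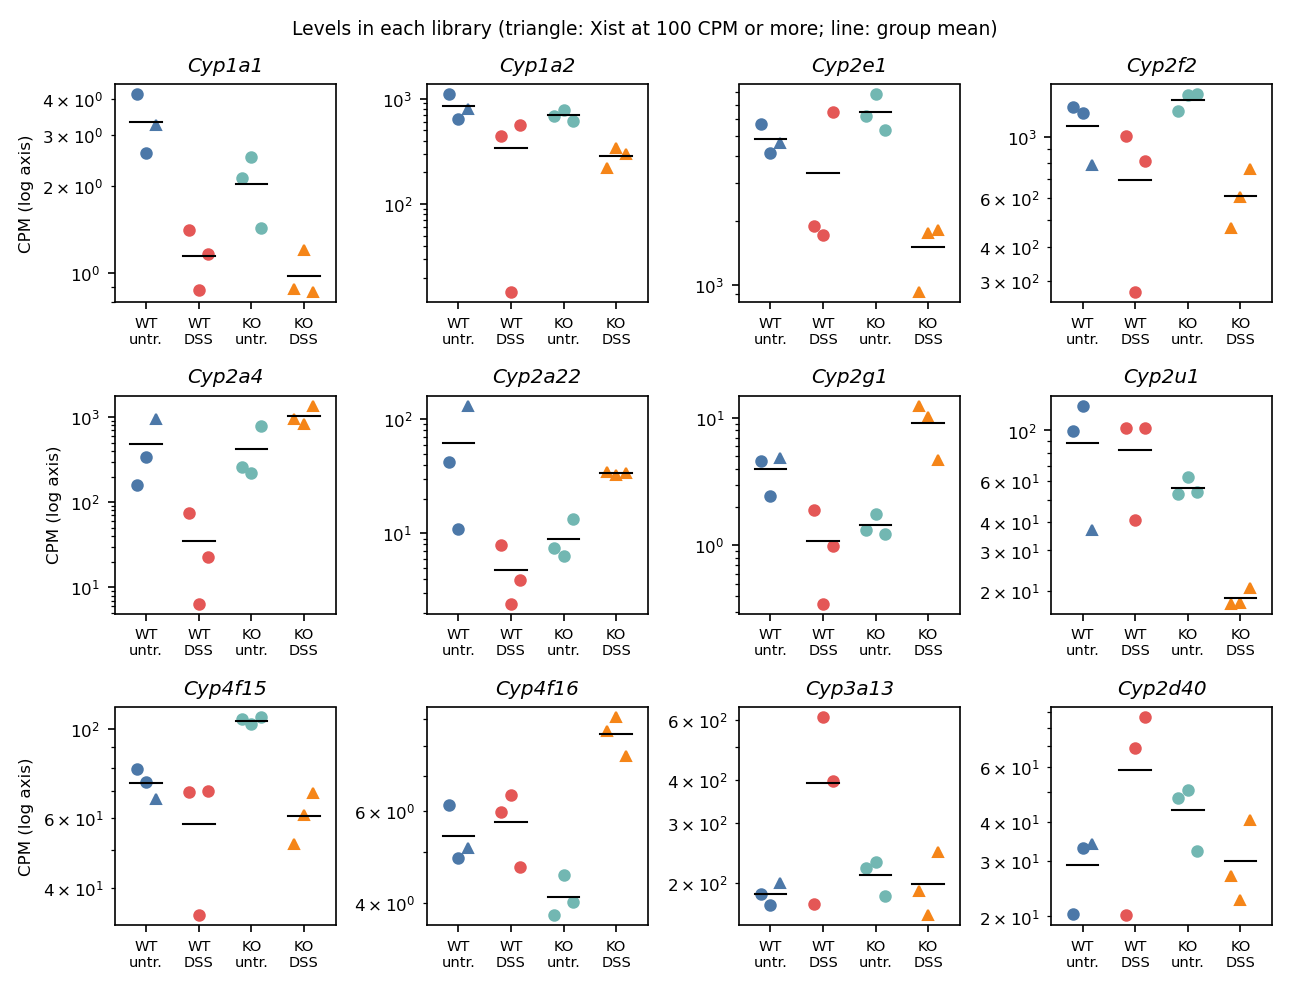
CPM on a log axis for 12 of the genes in each library of the 4 groups, triangles for the high-Xist libraries and lines for the group means. The 3 knockout DSS values of Cyp2u1 (17.6 to 20.6) are the lowest of its panel, and those of Cyp2a4 (818 to 1349) and Cyp2g1 (4.66 to 12.4) lie among the highest together with the triangle of the wild-type untreated group.

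Cyp2d40 was at 20.4, 33.2 and 34 CPM in wild-type untreated and 20.2, 69.3 and 86.6 in wild-type DSS livers. DSS libraries 2 and 3 were above all untreated libraries and library 1 was below them, with a log2 fold change of 1.01 ± 0.45 (edgeR adjusted p = 0.343). The genotype difference under DSS was -0.97 ± 0.45 and the interaction -1.55 ± 0.64 (edgeR adjusted p = 0.368 and 0.271). Without wild-type DSS library 1 the wild-type response was 1.42 (edgeR adjusted p = 0.0372). The genotype difference under DSS and the interaction also passed then, at -1.37 and -1.95 (edgeR adjusted p = 0.0316 and 0.0385). In knockout livers Cyp2d40 was at 32.3 to 50.7 CPM untreated and 22.5 to 40.6 with DSS, which overlapped. Its transcript shares 94.9% identity with Gm5062, which was not analysed here.

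Cyp2j6, of a subfamily that epoxidises arachidonic acid, stayed between 68.7 and 121 CPM in all libraries. Cyp2r1, the liver hydroxylase of vitamin D, was at 15.4 to 20.5 CPM in wild-type untreated and 14.4 to 15 in wild-type DSS livers, and this separation was a log2 fold change of -0.28 ± 0.20 (edgeR adjusted p = 0.578). Cyp2j8, Cyp2s1 and Cyp2t4 were low, and Cyp2j8 and Cyp2t4 came near the floor of detection. Cyp2j8 had 8 to 12 counts in each wild-type untreated library and was at 0 in 2 of 3 libraries of each other group, where 0 counts allow up to 0.0478 CPM. Cyp2s1 stood at 2.41 CPM in knockout untreated library 2 and at 1.12 CPM or below elsewhere, and Cyp2t4 did not exceed 0.445 CPM.

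Among the Cyp3a genes, which oxidise a wide range of drugs and steroids, edgeR called 0 of the 3 tested in every comparison. Over all genes it called 0.0623% to 7.02%. DESeq2 called Cyp3a13 with DSS in wild type only, where it called 840 genes over all (5.59%). At an unadjusted p under 0.05, Cyp3a13 was counted with DSS in wild type, between the DSS-treated genotypes and in the interaction, where 14.5%, 14.3% and 16.3% of all genes were. Cyp3a13 was at 186, 172 and 200 CPM in wild-type untreated and 173, 612 and 397 in wild-type DSS livers. DSS libraries 2 and 3 were above and library 1 within the untreated range. Its log2 fold change of 1.08 ± 0.34 was the highest of the 26 genes in this comparison (edgeR adjusted p = 0.157, DESeq2 adjusted p = 0.026), and it was 1.44 without wild-type DSS library 1 (edgeR adjusted p = 0.0104) and 0.61 without library 2 (edgeR adjusted p = 0.397). In knockout livers Cyp3a13 was at 183 to 230 CPM untreated and 161 to 247 with DSS, a log2 difference of -0.09 ± 0.33 (edgeR adjusted p = 0.904). The DSS responses differed by -1.17 ± 0.47 (edgeR adjusted p = 0.254), with a 95% interval from -2.1 to -0.244. The genotype difference under DSS was -0.99 ± 0.34 (edgeR adjusted p = 0.225), and -0.52 without wild-type DSS library 2 (edgeR adjusted p = 0.454). Without wild-type DSS library 1 the difference of the responses was -1.53 and the genotype difference under DSS -1.34, and both passed (edgeR adjusted p = 0.0377 and 0.0128). Cyp3a25 was at 359 to 723 CPM and Cyp3a59 at 30.5 to 144, with overlapping groups throughout. Their transcripts are 97% identical, so reads may be shared between them. Cyp3a57 had 22 counts in wild-type untreated library 3, 13 in knockout DSS library 3 and 0 in the other libraries.

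Cyp4a14, a fatty acid hydroxylase induced through the peroxisome proliferator receptor alpha, varied widely among the mice of a group. It was at 17.8, 28.4 and 252 CPM in wild-type untreated, 103, 1.02 and 1.33 in wild-type DSS, 34.3, 4.5 and 80.8 in knockout untreated and 35.1, 23.5 and 85.4 in knockout DSS livers. The groups overlapped in every comparison, and the standard errors of its log2 fold changes were 1.77 to 1.81 for the 4 comparisons of groups. Cyp4a14 was 252 CPM in the high-Xist wild-type library, which is the highest value of all 12, and 23.5 to 85.4 in the other 3 high-Xist libraries. Cyp4b1, a fatty acid hydroxylase known mainly from lung, stayed between 6.97 and 16.9 CPM.

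The Cyp4f genes, whose enzymes hydroxylate leukotrienes and long-chain fatty acids, gave 2 calls among the 5 tested, both with DSS in knockout, Cyp4f16 higher and Cyp4f15 lower, where 7.02% of all genes changed. The promoter of Cyp4f16 (chr17:32673252-32673501, mm9, plus strand) is shown because its rise was called in 18 of 19 alternative fits. Capitals mark GCGTG, here on the minus strand.
Cyp4f16: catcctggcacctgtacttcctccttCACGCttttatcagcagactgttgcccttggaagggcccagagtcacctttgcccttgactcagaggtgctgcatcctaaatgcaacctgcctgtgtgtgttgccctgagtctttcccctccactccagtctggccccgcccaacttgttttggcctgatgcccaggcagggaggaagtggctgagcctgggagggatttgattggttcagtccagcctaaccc
The motif begins 224 bases before the RefSeq start.

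Cyp4f16 was at 3.79, 4.53 and 4.02 CPM in knockout untreated and 8.56, 9.07 and 7.66 in knockout DSS livers, without overlap and on 285 to 758 counts per library. It rose by 1.04 ± 0.17 on the log2 scale, 2.05-fold (edgeR adjusted p = 0.00599). In wild type it was at 6.16, 4.88 and 5.1 CPM untreated and 5.98, 6.45 and 4.69 with DSS, which overlapped, with a log2 fold change of 0.08 ± 0.17 (edgeR adjusted p = 0.875). The responses differed by 0.95 ± 0.24 (edgeR adjusted p = 0.107, DESeq2 adjusted p = 0.0147). The knockout call of Cyp4f16 stayed in each of the 12 fits that left out 1 library, at 0.98 to 1.11, with an edgeR adjusted p of at most 0.0267. With the high-Xist covariate the value was 1.15 and the edgeR adjusted p 0.27. The transcript shares 96.1% identity with Gm9705, which also has a row, so reads may be split between them.

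Cyp4f15 was at 79.5, 73.6 and 66.8 CPM in wild-type untreated, 69.8, 34.3 and 70.2 in wild-type DSS, 106, 103 and 107 in knockout untreated and 51.6, 61 and 69.1 in knockout DSS livers. The knockout untreated values were the 3 highest of all 12. In knockout Cyp4f15 fell by 0.80 ± 0.22 on the log2 scale with DSS, 1.74-fold (edgeR adjusted p = 0.0491), and in wild type the log2 fold change was -0.34 ± 0.22 (edgeR adjusted p = 0.529), and -0.07 without wild-type DSS library 2 (edgeR adjusted p = 0.893). Untreated knockout livers were above wild type by 0.52 ± 0.22 (edgeR adjusted p = 0.381). The knockout call stayed without any of the 3 wild-type DSS libraries and was lost without any of the other 9, at -0.90 to -0.71 (edgeR adjusted p from 0.063 to 0.173). With the high-Xist covariate it was -0.60 (edgeR adjusted p = 0.631).

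Cyp4f18, the leukotriene hydroxylase of mouse neutrophils, was at 0.455 to 0.58 CPM in knockout untreated and 0.706 to 1.83 in knockout DSS livers, a log2 difference of 1.19 ± 0.56 (edgeR adjusted p = 0.217), and 3.24 with the high-Xist covariate (edgeR adjusted p = 0.275). In wild type Cyp4f18 was at 1.13, 0.506 and 0.196 CPM untreated and 0.894, 1.56 and 0.666 with DSS, which overlapped. The neutrophil marker sums separated the knockout groups, 0.345 to 0.715 against 6.07 to 21.9 CPM. The Kupffer cell, stellate cell and lymphocyte sums did so too, and the part of these cells in the Cyp4f18 values was not tested. Cyp4f17 stayed between 7.58 and 16.4 CPM and Cyp4f39 between 0.106 and 0.694. Cyp4f40 had 19 counts in knockout untreated library 2 and 0 elsewhere, and Cyp4x1 was above 0 only in knockout untreated libraries 1 and 2, at 0.16 and 0.497 CPM.

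**Figure D4:**
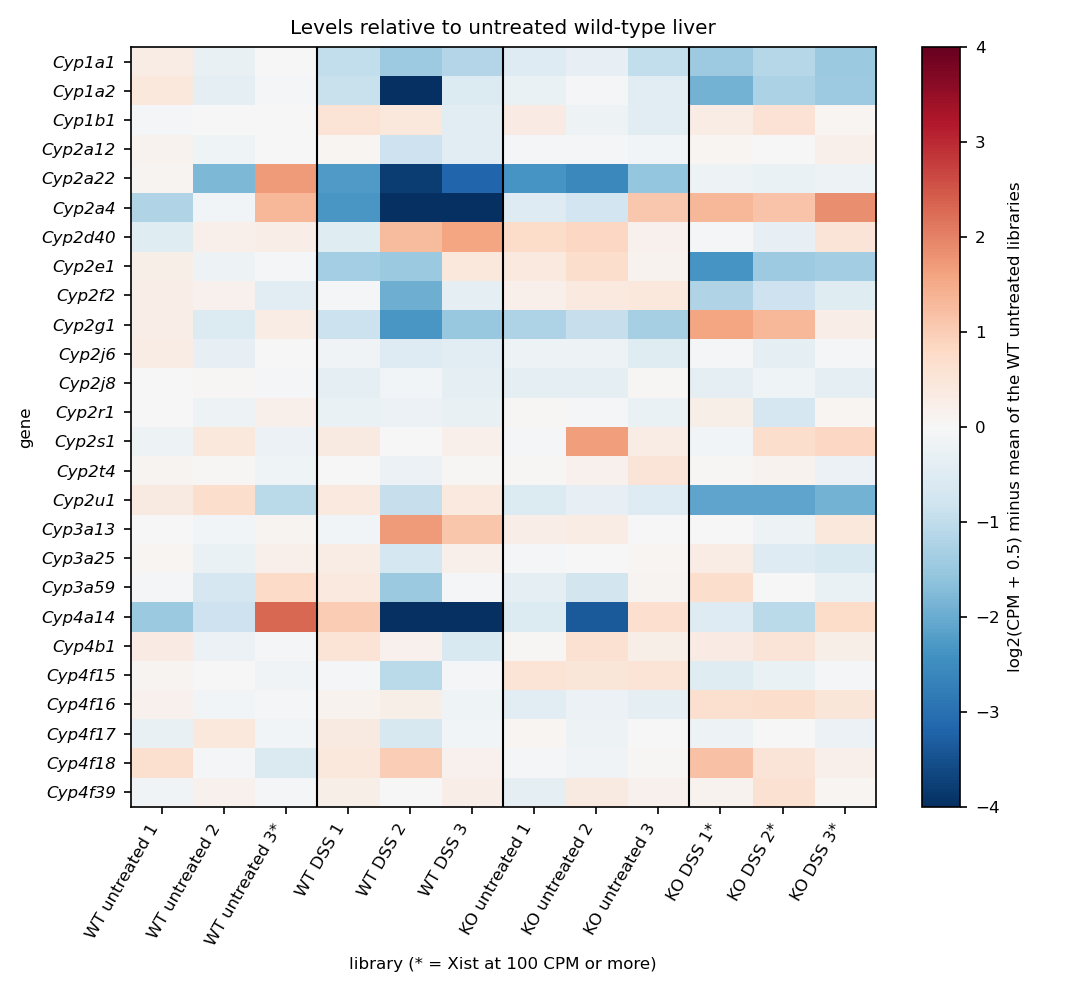
Heatmap of the 26 tested genes (vertical) in the 12 libraries (horizontal, asterisks for high Xist), coloured by log2(CPM + 0.5) minus the mean of the wild-type untreated libraries, with colours saturated at 4 in either direction. Cyp2a22, Cyp2a4 and Cyp4a14 show the strongest colours together with Cyp1a2, and wild-type DSS library 2 is the only one with Cyp1a2 at full blue.

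The motif letters were counted over the 250 bases before the start for 24 of the 29 genes, those in the set of promoters used here. They have 26 promoters. GCGTG was found in 4 of the 26, those of Cyp1a1, Cyp1b1, Cyp4f16 and Cyp4f39, against 28.2% of all 32851 promoters. The STAT motif TTCNNNGAA was found in 1, that of Cyp4b1, against 7.02%, and TTATGNAA in 1, that of Cyp2a4, against 3.07%. A direct repeat of AGGTCA with 1 base between was found in none of the 26, against 0.0335% of all promoters. Cyp2g1, Cyp2u1, Cyp4a14, Cyp4f17 and Cyp4x1 were not in the set of promoters used here.

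**Figure D5:**
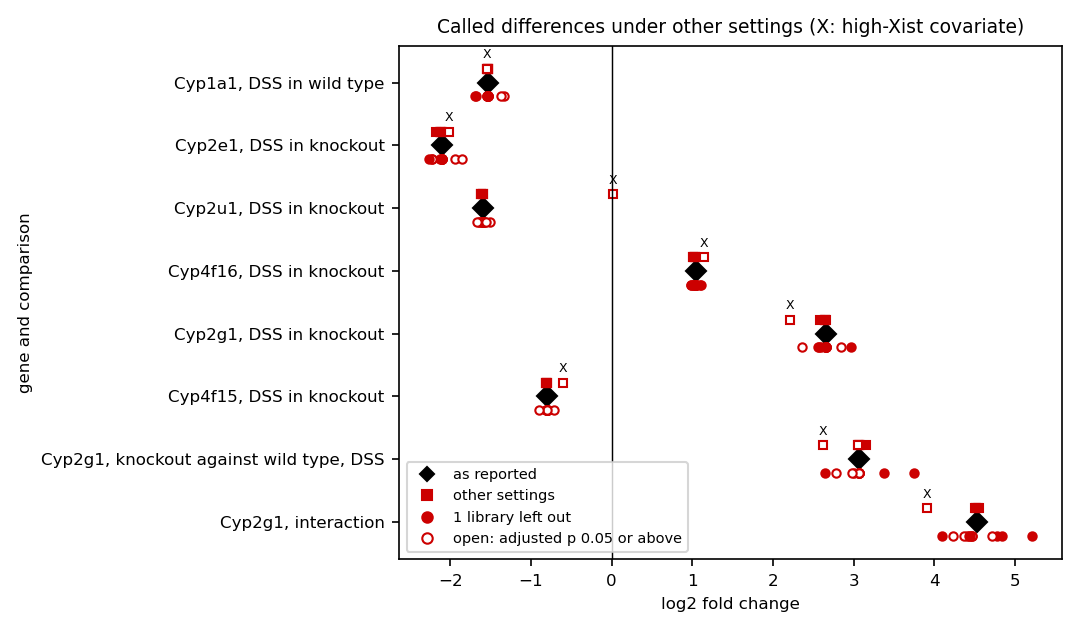
Log2 fold changes of the 8 called differences (vertical) as reported (diamonds), under other settings (squares) and with 1 library left out (circles), open where the edgeR or DESeq2 adjusted p was 0.05 or above. The mark X is the fit with a high-Xist covariate, which is open in all 8 and lies at 0.02 for Cyp2u1.

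The proteins that serve the P450s and the factors that control them were taken as lists. Of 18 genes for electron transfer and haem turnover, 16 were tested, and with DSS in knockout 1 rose and 2 fell, where 7.02% of all genes changed. Alas1, which makes the first committed step of haem synthesis, was at 840, 697 and 693 CPM in knockout untreated and 93.5, 295 and 182 in knockout DSS livers, and fell by 1.97 ± 0.36 on the log2 scale (edgeR adjusted p = 0.0097). Wild-type values of Alas1 were 208, 289 and 312 CPM untreated and 137, 176 and 90.2 with DSS. Por, the P450 reductase, was at 275, 828 and 458 CPM in knockout untreated and 99.6, 149 and 203 in knockout DSS livers, and fell by 1.79 ± 0.43 on the same scale (edgeR adjusted p = 0.032). Blvra, biliverdin reductase, rose by 0.63 ± 0.14 (edgeR adjusted p = 0.0224). The median of the 16 was -0.45 there, against -0.01 over all genes. In the other 4 comparisons edgeR called none of the 16, where it called 0.0623% to 0.685% of all genes. At an unadjusted p under 0.05 edgeR counted 12 of the 16 with DSS in knockout, against 24.1% of all genes. It counted 1 with DSS in wild type, 6 between untreated genotypes, 3 between DSS-treated genotypes and 4 for the interaction, against 14.5%, 11.7%, 14.3% and 16.3% of all genes. DESeq2 called 0, 2, 2 and 1 of the 16 in the same order, and 5.59%, 2.3%, 3.89% and 4.5% over all genes. The Alas1 call stayed in each fit that left out 1 library. Por was lost without knockout untreated library 2 or 3, knockout DSS library 1 or 2 (-1.87 to -1.28, edgeR adjusted p from 0.0693 to 0.128) or the filter (-1.79, edgeR adjusted p = 0.0709). Blvra was lost without any of the knockout untreated libraries or knockout DSS library 1 or 2 (0.52 to 0.66, edgeR adjusted p from 0.0501 to 0.104). With the high-Xist covariate the values of Alas1, Por and Blvra were -2.29, -1.66 and 0.91 (edgeR adjusted p = 0.27, 0.468 and 0.27).

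Of 22 regulators, all tested, 4 fell with DSS in knockout by edgeR and none rose, where 2.46% of all genes fell and 4.57% rose, and 13 had an unadjusted p under 0.05 against 24.1% of all genes. DESeq2 called the same 4 and Cux2, a transcription factor known to be more abundant in female than in male mouse liver, which was chosen for naming after its values were seen. Over all genes DESeq2 called 14.4% there. Cux2 separated upward with a log2 fold change of 3.76 ± 1.11 (edgeR adjusted p = 0.0762). The genes that fell were Nr1i3 (the constitutive androstane receptor) by 0.99 ± 0.19, Ppara by 0.93 ± 0.19, Hnf4a by 0.70 ± 0.18 and Nr1h4 (the bile acid receptor) by 0.71 ± 0.19 on the log2 scale (edgeR adjusted p = 0.0116, 0.0145, 0.0325 and 0.04). Nr1i3 was at 127, 189 and 167 CPM in knockout untreated and 68.6, 89.7 and 85.6 in knockout DSS livers, and at 114, 72.9 and 108 and 74.3, 75.2 and 77.3 in the wild-type groups. The knockout groups did not overlap and the wild-type groups did. Ahr, the aryl hydrocarbon receptor, stayed between 38.8 and 99.7 CPM with overlapping groups in every comparison. Nr1i2, the pregnane X receptor, separated downward with DSS in both genotypes without passing the test (log2 -0.50 ± 0.18 and -0.47 ± 0.18, edgeR adjusted p = 0.21 and 0.125). Without wild-type DSS library 2 these values were -0.72 and -0.48, and the knockout value passed (edgeR adjusted p = 0.0572 and 0.0478). No regulator was called by edgeR in the other 4 comparisons, where 0.0623% to 0.685% of all genes were. In the order above, 5, 3, 6 and 6 had an unadjusted p under 0.05, against 14.5%, 11.7%, 14.3% and 16.3% of all genes. DESeq2 called 0, 1, 1 and 2 regulators, and 5.59%, 2.3%, 3.89% and 4.5% over all genes. The Nr1i3 call was lost without knockout untreated library 2 or knockout DSS library 1 (edgeR adjusted p = 0.0637 and 0.0511), and that of Ppara without knockout untreated library 2 or knockout DSS library 2 (edgeR adjusted p = 0.0774 and 0.0521). Hnf4a was lost without any 1 of the 6 knockout libraries (-0.76 to -0.61, edgeR adjusted p from 0.0545 to 0.115). Nr1h4 was lost without any 1 of 7 libraries, wild-type untreated 1 and 2, knockout untreated 1 and 2 and knockout DSS 1 to 3 (-0.74 to -0.53, edgeR adjusted p from 0.0534 to 0.174). With the high-Xist covariate Nr1i3, Ppara, Hnf4a and Nr1h4 were at -1.19, -1.23, -0.49 and -0.95 (edgeR adjusted p = 0.273, 0.263, 0.612 and 0.349).

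Nqo1, a quinone reductase counted among the aryl hydrocarbon receptor targets, was called with DSS in knockout. It was at 5.81, 6.21 and 4.09 CPM untreated and 14, 13.5 and 11.8 with DSS, a rise of 1.28 ± 0.26 on the log2 scale (edgeR adjusted p = 0.0146). It was lost without knockout untreated library 2 or 3 or knockout DSS library 1 (1.12 to 1.40, edgeR adjusted p from 0.0506 to 0.0606) and with the high-Xist covariate (0.53, edgeR adjusted p = 0.679). It was the only call among the 3 tested targets of that receptor, where 7.02% of all genes changed. In the other 4 comparisons edgeR called none of these 3, where it called 0.0623% to 0.685% of all genes. DESeq2 called Nqo1 between the DSS-treated genotypes and in the interaction, where it called 584 and 699 genes over all (3.89% and 4.5%). At an unadjusted p under 0.05 edgeR counted 1 target in each of these 4 comparisons except that of untreated genotypes. Over all genes it counted 14.5% of all genes with DSS in wild type, 11.7% between untreated genotypes, 14.3% between DSS-treated genotypes and 16.3% in the interaction. None of the 4 tested targets of the pregnane X and constitutive androstane receptors was called by edgeR in any comparison, where 0.0623% to 7.02% of all genes were. At an unadjusted p under 0.05 edgeR counted 2 of them with DSS in wild type, 2 between the DSS-treated genotypes and 1 in the interaction, against the same shares of all genes, and 0 between untreated genotypes and with DSS in knockout (24.1% of all genes in the latter). DESeq2 called Ugt2b34 with DSS in wild type only, where it called 840 genes over all (5.59%).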

How the data were processed

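Liver RNA of 12 mice was sequenced in paired-end mode after removal of rRNA. The authors used fastp for trimming, aligned reads to mm9 with HISAT2 and counted genes with StringTie, and deposited these estimated counts as whole numbers without normalization. The annotation behind the table is not given in the sources used here. Its gene identifiers were named from GENCODE vM1, and coordinates are those of mm9.

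Counts were tested in R 4.3.3 with edgeR 4.0.16 (filterByExpr, TMM, robust quasi-likelihood F test, 1 model with 4 groups, 17652 genes, Benjamini-Hochberg adjustment, threshold 0.05). The comparisons were DSS against untreated in each genotype, knockout against wild type in each treatment, and the interaction. Standard errors are of the fitted log2 fold changes and were derived from the F statistic. The 95% intervals use a normal approximation and are narrower than the F test implies. Cyp2j6 with DSS in wild type had an interval of -0.71 to -0.0329 at an unadjusted edgeR p of 0.0513. CPM use library totals of 65879529 to 82850098 counts multiplied by their TMM factors. The floor of 3 counts corresponds to 0.036 to 0.0478 CPM and covers counting error only. The steps were tested on simulated data.

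The genes and lists were chosen with earlier results of these data known. Named genes were those called in any comparison, the most abundant per kb of each subfamily, known sex-biased genes, and the highest and lowest fold changes among the rest. Of the lists, called genes and Por, Ahr, Nr1i2, Nr1i3 and Ppara were named. The values of other genes were summarised. A further list of receptor targets is not reported here.

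Alternatives were DESeq2 1.42.0, DESeq2 size factors, no filter, a mean of at least 10 counts, a replicate block, a covariate for Xist at 100 CPM or more, only the groups compared, no high-Xist libraries, and each library left out. Promoters came from RefSeq (GRCm38.p6) and were placed on mm9 by exact match. Likeness between members was measured as transcript identity with BLAST 2.17.0, in place of the protein comparison that had been planned.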

Additional observations from a re-analysis of the deposited data

Results flagged for a closer look

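The DSS response of Cyp2g1 differed between the genotypes by 4.53 ± 0.73 on the log2 scale in the edgeR interaction test (adjusted p = 0.027). In wild-type livers the DSS values of 0.35 to 1.89 CPM lay below the untreated values of 2.43 to 4.81, and in knockout livers the DSS values of 4.66 to 12.4 lay above the untreated values of 1.23 to 1.77. All 3 knockout DSS libraries were high in Xist, and with a high-Xist covariate the edgeR difference was 3.91 (adjusted p = 0.584). No outlying library was tested for, since each group has 3 libraries.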

How the results depend on the processing

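The number of the 26 genes called depended on the setting in each comparison. With DSS in wild type 1 gene was called, against 5 by DESeq2 and 0 with the replicate block, the high-Xist covariate, only the groups compared, or no high-Xist libraries, and 0 to 4 with 1 library left out. The shares over all genes were 0.685%, 5.59%, 0.674%, 0.283%, 0.129%, 0.0898% and 0.191% to 1.14% in the same order. With DSS in knockout 5 genes were called, against 7 by DESeq2, 3 with the replicate block, 0 with the covariate, 8 with only the groups compared and 1 to 8 with 1 library left out. Here the shares over all genes were 7.02%, 14.4%, 6.59%, 0.0227%, 10.2% and 1.32% to 9.5%. Between untreated genotypes DESeq2 called 1 gene and every edgeR setting 0, where they called 2.3% and 0% to 0.364% of all genes. Between the DSS-treated genotypes 1 gene was called, against 4 by DESeq2, 0 without the filter, 0 with the covariate and 0 to 4 with 1 library left out. In the same order the shares over all genes were 0.334%, 3.89%, 0.224%, 0.0283% and 0.0601% to 2.14%. For the interaction 1 gene was called, against 4 by DESeq2, 0 with the covariate and 0 to 3 with 1 library left out. Of all genes 0.408%, 4.5%, 0.0227% and 0.115% to 1.2% were called in the same order. The knockout DSS response of Cyp2u1 changed sign to 0.02 with the covariate. In these cases the cause was not tested, except that leaving out libraries or groups leaves fewer samples. Counts aside, 3184 values per gene and setting were called in both settings or differed by at most 1 SE while called in neither. Of the others 117 moved by more, 47 newly passed the threshold, 99 no longer did and 1 called value changed sign.

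Of the lists with DSS in knockout, the haem and redox list gave 3 calls, 8 by DESeq2, 5 with DESeq2 size factors, 6 with only the groups compared and 1 to 6 with 1 library left out. The regulators gave 4, 5 by DESeq2 and with only the groups compared, and 0 to 5 with 1 library left out. The aryl hydrocarbon receptor targets gave 1, and 0 to 1. The share of all genes called there was 7.02%, 14.4% by DESeq2 and 7.09% with DESeq2 size factors. It was 10.2% with only the groups compared, 1.32% to 9.5% with 1 library left out and 0.0227% with the covariate. The covariate gave 0 in these 3 lists, and only the groups compared gave 1 for the pregnane X and constitutive androstane receptor targets. In the other comparisons edgeR called 0 in each list, with these exceptions. DESeq2 called 1 or 2 as given in the report, only the groups compared gave 1 haem and redox gene between untreated genotypes, no filter gave 1 aryl hydrocarbon receptor target between DSS-treated genotypes and in the interaction, and leaving out 1 library gave 0 to 1 for these targets and for the regulators in both. Of all genes, only the groups compared called 0.364% between untreated genotypes, and no filter 0.224% and 0.27% in the other 2 comparisons named.

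Over all genes edgeR called 121, 1240, 11, 59 and 72 in the 5 comparisons in the order above, against 840, 2315, 334, 584 and 699 by DESeq2 and 50, 4, 2, 5 and 4 with the covariate. Using only the groups compared gave 21, 1698, 60 and 41 in the first 4 comparisons, the replicate block 33 and 128 in the untreated genotype comparison and the interaction, and no high-Xist libraries 16 and 0 in the wild-type DSS and untreated genotype comparisons. With 1 library left out they were 35 to 209, 241 to 1736, 2 to 34, 11 to 392 and 21 to 220. Libraries of equal number correlated at -0.0839 to 0.168 in their deviations from the group means, so the numbers were not taken to pair the mice, and the block is given here only. The covariate leaves the knockout DSS group to be compared through 1 wild-type library. Some genes had few counts per library, such as Cyp1a1 with 55 to 101 and Cyp2g1 with 22 to 135 in wild-type DSS livers. The part of depth in their values was not tested.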
